A study of Homo sapiens with 4 samples.

Results

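Expression of 10 aldehyde dehydrogenase genes (ALDH1A1, ALDH1A2, ALDH1A3, ALDH1B1, ALDH1L1, ALDH2, ALDH3A2, ALDH3B1, ALDH6A1 and ALDH7A1) was examined in A549 and H441, established human lung cancer cell lines, after silencing of TAZ, the transcriptional co-activator encoded by WWTR1. The genes were taken by name and matched by single gene symbol in the platform's annotation, which gave 10 of 18377 named genes. They were chosen on earlier results from these arrays, in which the difference of ALDH1A1 between A549 and H441 was seen to be the largest of any gene, so the line differences below are a description and carry no test. The samples were A549 cells transfected with an siRNA named for TAZ (siTAZ), A549 cells with the control siRNA (siNTC), H441 cells with siTAZ and H441 cells with siNTC, with 1 array per group. All 4 groups were given a lipid transfection reagent, and total RNA was taken 48 h later. Each line is a single cell line with no repeat culture, and the sources used here do not give the siRNA sequences.

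Aldehyde dehydrogenases oxidise aldehydes to carboxylic acids with NAD+ or NADP+ as the acceptor, and so clear reactive aldehydes made by lipid peroxidation, alcohol breakdown and amino acid breakdown. The ALDH1A enzymes turn retinaldehyde into retinoic acid, the ligand of the nuclear retinoic acid receptors. In lung cancer the family is best known for the enzyme activity assay used to isolate cells with stem-like behaviour, to which ALDH1A1 and ALDH1A3 are usual contributors.

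The promoter windows of ALDH1A1 and ALDH1A3 are shown because these were the 2 genes of the 10 that differed most between the lines, in opposite directions. Each runs from 250 bases before to 50 bases after the annotated start, 5′ to 3′ on the gene's strand, from RefSeq on GRCh38.p14. The ALDH1A1 window is chr9:72953004-72953303 on the minus strand and the ALDH1A3 window is chr15:100879581-100879880 on the plus strand, and capitals mark the CCAAT box.
ALDH1A1: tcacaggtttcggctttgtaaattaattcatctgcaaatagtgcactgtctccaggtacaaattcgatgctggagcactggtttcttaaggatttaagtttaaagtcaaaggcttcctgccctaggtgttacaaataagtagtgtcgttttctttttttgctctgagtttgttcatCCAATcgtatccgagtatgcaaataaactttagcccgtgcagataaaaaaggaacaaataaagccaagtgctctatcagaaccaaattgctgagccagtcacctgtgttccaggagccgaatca
ALDH1A3: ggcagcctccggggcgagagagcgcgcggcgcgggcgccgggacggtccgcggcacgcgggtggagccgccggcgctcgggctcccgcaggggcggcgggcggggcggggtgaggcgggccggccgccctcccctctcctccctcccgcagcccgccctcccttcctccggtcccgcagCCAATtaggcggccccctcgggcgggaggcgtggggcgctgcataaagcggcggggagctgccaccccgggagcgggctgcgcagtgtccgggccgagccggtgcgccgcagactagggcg
The ALDH1A1 window is rich in A and T, with 40.3% G and C, and the ALDH1A3 window has 81.7%, against a median of 58.7% and quartiles of 47% and 68% over 35116 RefSeq windows of the same length. Each holds 1 CCAAT box at nearly the same place, 74 bases upstream of the start in ALDH1A1 and 71 bases upstream in ALDH1A3.

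Of the 10 genes, 9 had at least 1 window in the table, 13 windows in all, and ALDH2 had none there. Both strands were searched. CCAAT was found in 7 of 13 windows (53.8%), 1 window each of 7 genes, against 34.6% of all windows. ALDH6A1 held 4 matches in its window. The TEAD motif CATTCC, bound by the DNA-binding partners of TAZ, was found in 0 of 13 windows, against 14.0% of all windows. The antioxidant response element core TGACNNNGC was also found in 0 of 13, against 13.3% of all windows, as was the direct repeat of the retinoic acid receptor half-site AGGTCA with 5 bases between, which is in 2 of 35116 windows. No match says only that these letters are not in these windows.

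**Figure D1:**
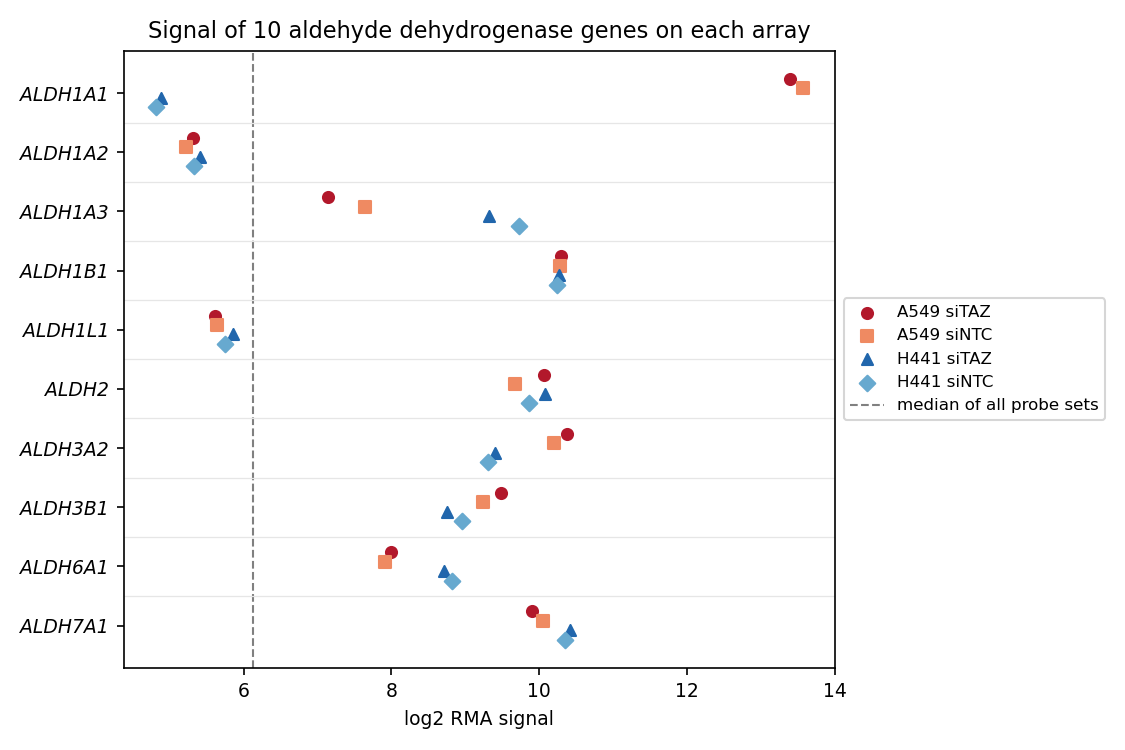
Log2 RMA signal (horizontal axis) of the 10 genes on each of the 4 arrays, 1 point per array, with the median of all probe sets as a dashed line. ALDH1A1 lies at 13.39 and 13.57 on the A549 arrays and at 4.88 and 4.81 on the H441 arrays, ALDH1A3 lies higher on both H441 arrays, and ALDH1A2 and ALDH1L1 lie left of the dashed line on all 4.

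The values are log2 signals of whole-transcript arrays. Over all probe sets the 2 arrays of a line correlated at 0.994 in A549 and 0.995 in H441, and the arrays of different lines at 0.915 with siTAZ and 0.916 with siNTC. WWTR1 fell to 7.64 with siTAZ, against 10.04 with siNTC, in A549, and to 7.47, against 9.61, in H441, a mean of -2.27 ± 0.12 (limma SE, adjusted p = 1.5e-11). All 6 epithelial markers checked were above the median of the whole table (6.13) on every array. Their levels differed between the lines to unlike degrees. EPCAM was at 6.74 with siTAZ and 6.65 with siNTC in A549, against 12.00 and 12.13 in H441, while KRT8 had a mean line difference of -0.19. Of 7 lung epithelial lineage markers, 2 were above the median of the whole table on the A549 arrays and 6 on the H441 arrays. NKX2-1 was at 5.01 and 5.02 in A549, against 9.57 and 9.14 in H441. The list did not move as one, since FOXA2 was at 8.72 and 8.48 in A549, against 6.92 and 6.56 in H441, and SFTPD had a mean line difference of -0.10. Markers of blood, endothelial and fibroblast cells were above it for 2 of 7 in A549 and 3 of 7 in H441 (CD68, COL1A1 and COL3A1), and PTPRC, CD3E, PECAM1 and CDH5 were below it on all 4 arrays. In bulk RNA, fewer cells that express a gene and less RNA of it per cell cannot be told apart.

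The ALDH1A subfamily makes retinoic acid, and its 3 members had 3 different patterns. ALDH1A1, the cytosolic retinaldehyde dehydrogenase, had log2 signals of 13.39 with siTAZ and 13.57 with siNTC in A549, against 4.88 and 4.81 in H441. Both A549 arrays were high, and both H441 arrays were below the lower quartile of their own array (5.08 with siTAZ and 5.02 with siNTC). The log2 difference of A549 minus H441 was 8.52 within the siTAZ arrays and 8.75 within the siNTC arrays, a mean of 8.63 or 397-fold. This was the largest absolute line difference of the 18377 genes, followed by MAL2, which was higher in H441 (-7.75). RMA compresses differences that involve dim probe sets, and no detection values were given, so the H441 signal may be background and the fold would then be a lower bound.

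ALDH1A3, another retinaldehyde dehydrogenase of the cytosol, showed the opposite order of the lines. Its log2 signals were 7.15 with siTAZ and 7.65 with siNTC in A549, against 9.32 and 9.73 in H441. In each line the siTAZ array was below the siNTC array. The log2 line difference was -2.18 within siTAZ and -2.08 within siNTC, a mean of -2.13 or 4.37-fold lower in A549. It was -1.75 after cyclic loess and -1.44 with the mean of the gene's 2 probe sets.

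ALDH1A2, the retinaldehyde dehydrogenase best known from embryonic retinoic acid synthesis, was dim on every array. Its log2 signals were 5.32 with siTAZ and 5.22 with siNTC in A549, and 5.41 and 5.33 in H441. It did not reach the median of the whole table on any array and was not tested.

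Among the other 7 members, mean line differences lay between -0.81 for ALDH6A1 and 0.93 for ALDH3A2. At least 2-fold in the same direction within both siRNA pairs, 2 of the 8 members that passed the filter on dim genes differed between the lines, ALDH1A1 and ALDH1A3, against 20.4% of all 12740 genes that passed it. The other 2 members, ALDH1A2 and ALDH1L1, were below the filter, so that the count does not cover them. Since the line difference chose the set, nothing is read from this share. The scaling matters for small line differences: the median A549 minus H441 difference over all genes was -0.20 as deposited and moved by 0.15, 0.20 and 0.21 with median centring, quantile normalization and cyclic loess.

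**Figure D2:**
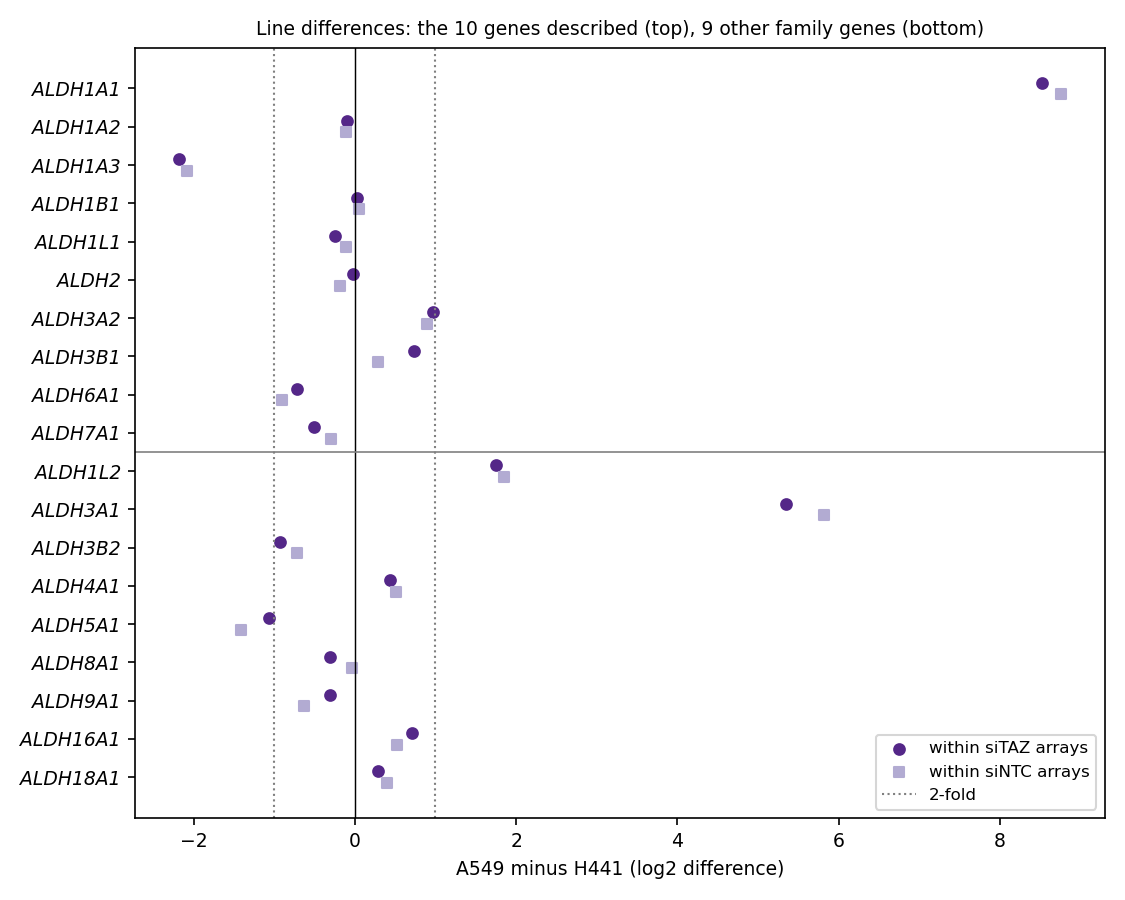
A549 minus H441 log2 difference (horizontal axis) within the siTAZ arrays and within the siNTC arrays for the 10 genes described (top) and the 9 other family genes (bottom), with dotted lines at 2-fold. ALDH1A1 stands at 8.52 and 8.75 and ALDH3A1 at 5.35 and 5.82, while ALDH1A3 stands at -2.18 and -2.08.

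The mitochondrial enzymes for acetaldehyde and related short aldehydes differed little between the lines. ALDH2, the main enzyme of acetaldehyde oxidation, had log2 signals of 10.06 with siTAZ and 9.68 with siNTC in A549, and 10.08 and 9.86 in H441. Its mean line difference was -0.10, and the sign turned under median centring, quantile normalization and cyclic loess (up to 0.30). ALDH1B1, a mitochondrial relative of ALDH2 that also accepts retinaldehyde, had 10.29 on both A549 arrays, and 10.26 with siTAZ and 10.24 with siNTC in H441. Its line difference was 0.04, or up to 0.45 after quantile normalization. The order of the lines therefore cannot be read for ALDH2. ALDH1B1 kept the sign of its line difference, but the size depended on the scaling. Its siTAZ difference changed sign in each line under median centring.

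ALDH3A2 and ALDH3B1 act on lipid-derived aldehydes, and both had higher signals in A549, though neither was 2-fold apart in both siRNA pairs. ALDH3A2, the fatty aldehyde dehydrogenase of the endoplasmic reticulum, had log2 signals of 10.37 with siTAZ and 10.20 with siNTC in A549, against 9.41 and 9.31 in H441. Its mean line difference was 0.93 or 1.90-fold, and 1.08 to 1.33 under the other scalings. ALDH3B1, a membrane-bound enzyme of medium- and long-chain aldehydes, had 9.49 with siTAZ and 9.24 with siNTC in A549, against 8.75 and 8.96 in H441. Its log2 line difference was 0.74 within siTAZ and 0.28 within siNTC.

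ALDH6A1 and ALDH7A1 act in amino acid breakdown and ALDH1L1 in folate metabolism. ALDH6A1, the methylmalonate semialdehyde dehydrogenase of valine and thymine breakdown, had log2 signals of 7.99 with siTAZ and 7.91 with siNTC in A549, against 8.71 and 8.82 in H441. Its mean line difference was -0.81, and -0.43 after quantile normalization. ALDH6A1 also has another, dim probe set, with 4.99 with siTAZ and 4.85 with siNTC in A549, against 4.67 and 4.76 in H441, so that the lines were in the opposite order there, and with the mean of both probe sets the line difference was -0.30. ALDH7A1, the enzyme of lysine breakdown that oxidises aminoadipate semialdehyde, had 9.90 with siTAZ and 10.05 with siNTC in A549, against 10.41 and 10.35 in H441. Its mean line difference of -0.41 became 0.02 after quantile normalization and -0.0092 after cyclic loess. ALDH1L1, the cytosolic formyltetrahydrofolate dehydrogenase, had 5.62 with siTAZ and 5.64 with siNTC in A549, and 5.86 and 5.75 in H441, below the median of the whole table on all 4 arrays.

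**Figure D3:**
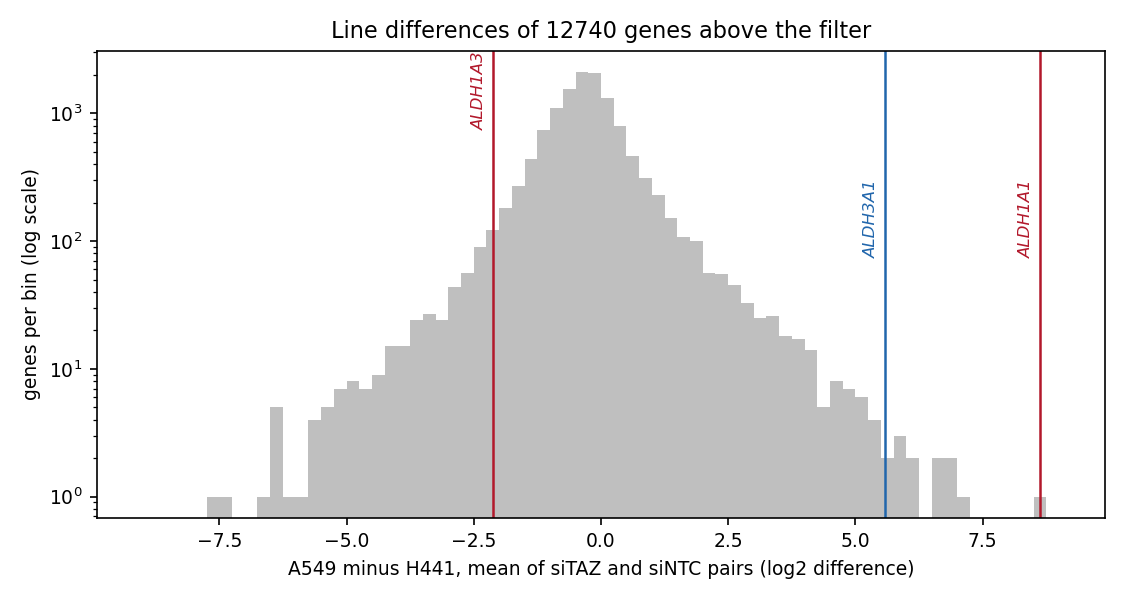
Number of genes (vertical axis, log scale) by mean A549 minus H441 log2 difference (horizontal axis) for the 12740 genes that passed the filter, in bins of equal width. The vertical lines mark ALDH1A3 at -2.13, ALDH3A1 at 5.59 and ALDH1A1 at 8.63, which is the farthest from 0.

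The genes whose profile over the 4 arrays lay nearest to that of ALDH1A1, by Euclidean distance of values centred on each gene's mean among the genes that passed the filter, were AKR1C2, CNTN1, AKR1B10, GPX2 and CA12. AKR1C2 and AKR1B10 encode aldo-keto reductases, GPX2 a glutathione peroxidase, CNTN1 a cell adhesion protein and CA12 a membrane carbonic anhydrase. Their mean line differences ran between 6.50 for CA12 and 7.09 for AKR1C2. The likeness rests on 4 arrays of 2 lines, so it mostly restates the line difference.

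After siTAZ, all 10 genes differed by less than 1.5-fold in each line. In A549, 0 of the 8 members above the filter on dim genes differed by at least 1.5-fold, against 2.83% of all 11405 genes above it. In H441 it was 0 of 7, against 1.45% of 11911 genes. The median log2 difference of siTAZ minus siNTC was 0.04 over the 8 members in A549 and 0.02 over the 7 in H441, against 0.0051 and 0.0048 over all genes above the filter. These are single arrays per group, so they carry no p-value.

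Over both lines, limma with the cell line as a block tested 8 of the 10 genes, and 1 passed at a Benjamini-Hochberg adjusted p under 0.05 over all genes, ALDH1A3. All genes passed at a rate of 2.47% in either direction and 1.29% for lower after siTAZ. A count of 1 of 8 is too small to set against that share. At an unadjusted p under 0.05 there were 2 of 8, ALDH1A3 and ALDH2, against 1688 of 12740.

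ALDH1A3 fell after siTAZ, to 7.15 against 7.65 with siNTC in A549 and to 9.32 against 9.73 in H441. The log2 differences were -0.50 and -0.41, 1.41-fold and 1.32-fold lower, and their mean was -0.45 ± 0.12 (limma SE, 95% interval -0.69 to -0.21, limma adjusted p = 0.037). It was lower in both lines, and each difference was below the 1.5-fold threshold. The call rests on 1 array per group and on a spread taken mostly from all genes, and it was lost after quantile normalization (limma adjusted p = 0.083), after cyclic loess (0.15) and without the filter on dim genes (0.11).

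The platform has a pair of probe sets for ALDH1A3, and they disagreed. The brighter, used here, is the one described above. The other had log2 signals of 5.65 with siTAZ and 5.64 with siNTC in A549, and 6.55 with siTAZ and 6.23 with siNTC in H441. It was level in A549 and 0.32 higher after siTAZ in H441, with its A549 signal below the median of the whole table. With the mean of both probe sets the difference over both lines was -0.14 and did not pass (limma adjusted p = 0.67). In the platform's annotation the second probe set was listed for a single cDNA accession and the first for the RefSeq transcripts of the gene.

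**Figure D4:**
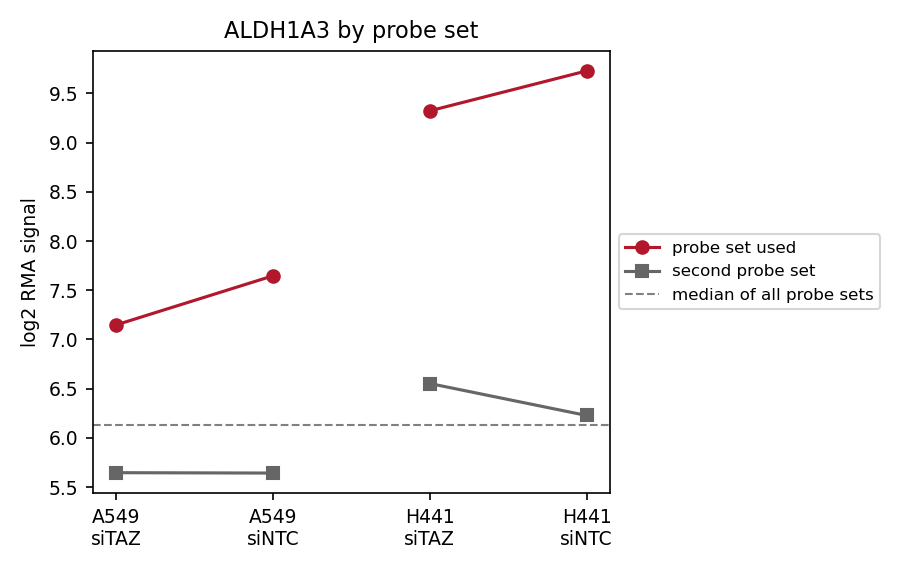
Log2 RMA signal (vertical axis) of the 2 ALDH1A3 probe sets on the 4 arrays, with a line joining the siTAZ and siNTC arrays of each line and the median of all probe sets dashed. The probe set used is lower with siTAZ in both lines, while the second probe set is at 5.65 and 5.64 in A549 and at 6.55 and 6.23 in H441.

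ALDH2 had the next smallest p-value among the members, with log2 differences of 0.38 in A549 and 0.22 in H441. In each line the siTAZ array was the higher. The mean was 0.30 ± 0.12 (limma SE, 95% interval 0.06 to 0.55), and it did not pass over all genes (limma adjusted p = 0.22, and 0.14 to 0.39 under the alternatives that kept the cell line in the fit).

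ALDH1A1 differed after siTAZ by -0.17 on the log2 scale in A549. In H441, with a dim signal on both arrays, it differed by 0.06. The mean of -0.06 ± 0.12 had a 95% interval of -0.30 to 0.19 (limma adjusted p = 0.90). Its line difference of 8.52 with siTAZ was thus close to that of 8.75 with siNTC, and the difference between these 2 values could not be tested with 4 arrays.

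ALDH3A2 had differences of 0.17 and 0.09 in A549 and H441 (limma adjusted p = 0.72), higher with siTAZ in both lines. ALDH3B1 had 0.25 and -0.21 (0.97), ALDH6A1 had 0.08 and -0.11 (0.97), and ALDH7A1 had -0.15 and 0.06 (0.92). These 3 differed in sign between the lines, although ALDH7A1 was at -0.02 in H441 after median centring. ALDH1B1 had 0.0065 and 0.02 (0.98), the smallest difference of the members in each line. The untested ALDH1A2 and ALDH1L1 had 0.10 and 0.08, and -0.02 and 0.11. With a limma SE near 0.12 for each gene, differences of the size of these could not be separated from 0.

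**Figure D5:**
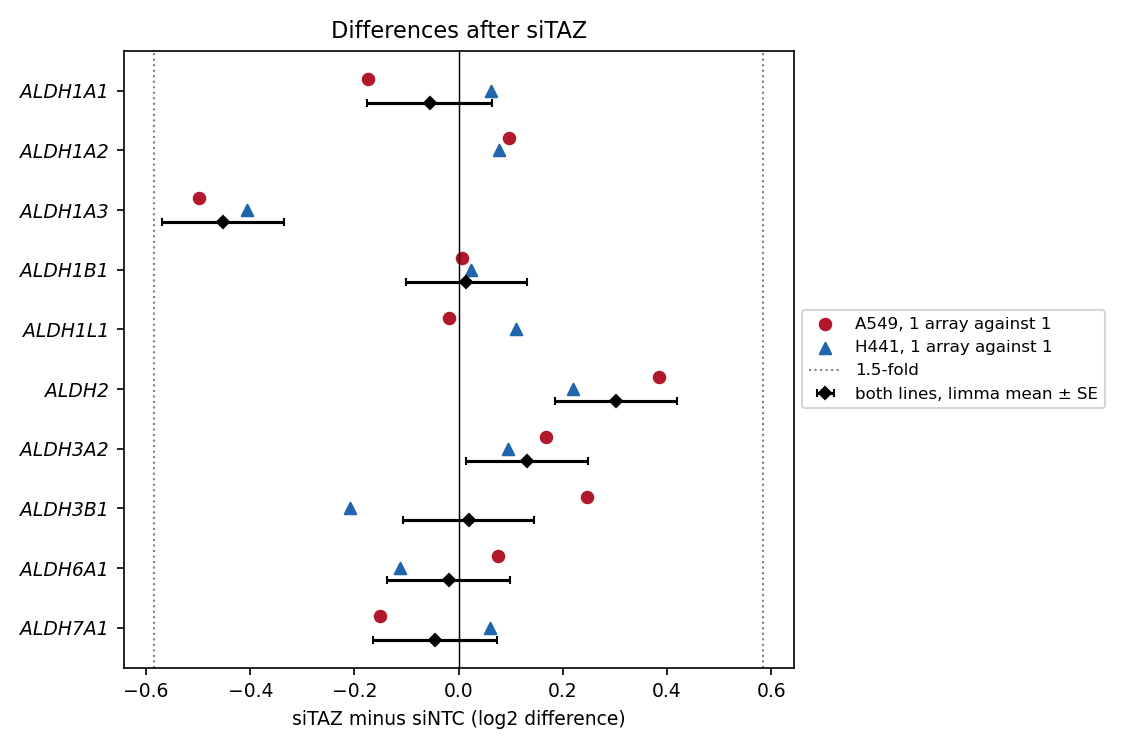
Log2 difference of siTAZ minus siNTC (horizontal axis) in A549 and in H441, 1 array against 1 array, with the limma mean and SE over both lines for the 8 tested genes and dotted lines at 1.5-fold. ALDH1A3 is at -0.50 and -0.41 and ALDH2 at 0.38 and 0.22, and every point lies inside the dotted lines.

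The other 9 aldehyde dehydrogenase genes of the human genome were taken as a list, and 8 of them passed the filter. Over both lines 0 of 8 passed the limma test, against 2.47% of all 12740 genes. At an unadjusted p under 0.05 there were 0 of 8, against 1688 of 12740. A set of 8 genes is too small to set against these shares. The mean differences of these 8 genes after siTAZ ran from -0.06 to 0.11. By line, 3 of the 8 differed at least 2-fold within both siRNA pairs, against the 20.4% of all genes. ALDH1L2 reached the filter in A549 only, and the list was chosen with earlier results known, so nothing is read from this share. ALDH3A1, an enzyme of aromatic and medium-chain aldehydes, had log2 signals of 11.72 with siTAZ and 11.95 with siNTC in A549, against 6.36 and 6.13 in H441, a mean line difference of 5.59 or 48.1-fold. ALDH1L2, the mitochondrial relative of ALDH1L1, had 6.82 and 6.78 in A549, against 5.07 and 4.93 in H441. ALDH5A1, the succinate semialdehyde dehydrogenase, was lower in A549, at 6.82 and 6.71, against 7.89 and 8.12 in H441. ALDH3B2, ALDH4A1, ALDH9A1, ALDH16A1 and ALDH18A1 had mean line differences between -0.82 and 0.62. ALDH8A1 was below the median of the whole table on all 4 arrays.

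Genes around the ALDH1A step of retinoid metabolism were set beside it. Of 20 listed, 16 had a probe set of their own and 13 were tested. Over both lines 2 rose after siTAZ, against 1.19% of all genes, and 2 of 13 is too few to set against that share. DHRS3, which reduces retinaldehyde back to retinol, had log2 signals of 10.26 with siTAZ and 9.68 with siNTC in A549, and 9.36 and 8.67 in H441, a mean difference of 0.64 (limma adjusted p = 0.0025). STRA6, the membrane receptor for vitamin A uptake, was higher by 0.29 in A549 and by 0.68 in H441 (limma adjusted p = 0.033). RDH10, which makes retinaldehyde, had 0.60 and 0.28 and did not pass (limma adjusted p = 0.054). Of the alternatives, only the stricter filter on dim genes brought RDH10 under 0.05 (limma adjusted p = 0.036). The median over the 11 genes above the filter was 0.26 in A549 and 0.11 in H441, against 0.0051 and 0.0048 for all genes. Over all probe sets the median of the H441 array was 6.25 with siTAZ and 6.17 with siNTC. The list was chosen with earlier results known, so nothing is read from its medians. After cyclic loess neither call held (limma adjusted p = 0.061 for DHRS3 and 0.16 for STRA6). The STRA6 call was also lost after quantile normalization (limma adjusted p = 0.10) and without the filter on dim genes (0.14).

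In the same list, CRABP2, a protein that carries retinoic acid to its receptors, followed the line order of ALDH1A3 and not that of ALDH1A1. It had log2 signals of 5.72 and 5.46 in A549 with siTAZ and siNTC, against 11.52 and 11.34 in H441. RARB, a retinoic acid receptor, had 7.72 and 7.52 in A549, against 5.69 and 5.54 in H441. DHRS9, a retinol dehydrogenase, had a mean line difference of -3.11 and RDH10 one of 1.71. The A549 signals of DHRS9, 5.20 with siTAZ and 5.21 with siNTC, were below the median of the whole table. So were those of CRABP2 in A549 and of RARB in H441.

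Of 16 matched genes for other enzymes that make, reduce or oxidise aldehydes, 10 were tested. After siTAZ 0 of 10 passed the limma test, against 2.47% of all 12740 genes. At an unadjusted p under 0.05 there was 1 of 10, against 1688 of 12740. A set of 10 genes is too small to set against these shares. The 1 gene was AOX1, an aldehyde oxidase, with 0 in A549, where it was dim, and -0.78 in H441 (limma adjusted p = 0.18). In H441 it was at 5.41 with siTAZ and 6.19 with siNTC, and only the siNTC array reached the median of the whole table (6.13). By line, 5 of the 10 were at least 2-fold higher in A549 and 0 lower, against 6.34% and 14.1% of all 12740 genes. Of these 5, AKR1B10, AKR1C1 and AKR1C2 reached the filter in A549 only. The list was chosen with earlier results known, so nothing is read from this share. AKR1B10 had log2 signals of 12.23 with siTAZ and 12.18 with siNTC in A549, against 5.29 and 5.32 in H441, and AKR1C2 and AKR1C3 had line differences of 7.09 and 5.27. AKR1C1 was at -0.0094 in A549 and 0.39 in H441 for siTAZ minus siNTC. Its H441 signals, 5.87 with siTAZ and 5.48 with siNTC, were both below the median of the whole table. ADH5, the class of alcohol dehydrogenase that handles formaldehyde, had 0.25 and 0.07. Neither AKR1C1 nor ADH5 passed (limma adjusted p = 0.57 and 0.63). The AKR1C genes are close copies of each other, so their probe sets may share signal.

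Of 15 partners in valine, lysine and folate metabolism, 1 of 15 tested rose after siTAZ, against 1.19% of all genes, and a single call of 15 is too few to set against that share. BCKDHB, a subunit of the branched-chain ketoacid dehydrogenase upstream of ALDH6A1, had differences of 0.45 and 0.48 (mean 0.47, limma adjusted p = 0.030), and the call was lost after median centring (0.051), quantile normalization (0.064), cyclic loess (0.12) and without the filter (0.094). SHMT1 and MTHFD2, of folate metabolism, had siTAZ differences of 0.42 and -0.17, and of -0.35 and -0.11, in A549 and H441, and did not pass (limma adjusted p = 0.77 and 0.43). The mean line difference was 2.13 for BCAT1, the cytosolic branched-chain aminotransferase, and -1.62 for ACAD8, the isobutyryl-CoA dehydrogenase of valine breakdown. AASS, upstream of ALDH7A1 in lysine breakdown, had a mean line difference of -1.59 and siTAZ differences of -0.17 in A549 and 0.17 in H441. The A549 signals of AASS, 5.03 with siTAZ and 5.20 with siNTC, were below the median of the whole table. So were the H441 signals of BCAT1, 5.10 with siTAZ and 5.07 with siNTC.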

How the data were processed

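RNA of A549 and H441 cells with siTAZ or siNTC was hybridised to 1 Affymetrix whole-transcript array per group. The authors deposited log2 probe set signals made with RMA, per the submitters' processing notes. The sources used here give neither its version nor whether it was run on the 4 arrays jointly. The values lay between 4.20 and 14.83, from which the log2 scale was read.

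Of 28869 probe sets, 19310 had a single gene symbol in the platform annotation, 1752 had several and 7807 had none there. Symbols were brought up to date through Entrez identifiers, and the brightest probe set by mean stood for each of the 685 genes with more than 1. A gene was tested where its highest value reached the median of the whole table (6.13).

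Differences within a line have no replicate. For the test over both lines, lmFit and eBayes of limma 3.58.1 (R 4.3.3; two-sided, cell line as a block) were run on 12740 genes. The fit has 1 residual degree of freedom and a prior worth 22.3, so its SE reflects mostly the spread over all genes. The fit was also run on simulated data, with the same spread for every gene and the same change in both lines. That setting is simpler than these arrays, so the run does not give the error rate here. The number of arrays limits the precision.

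The members and lists were chosen with earlier results of these data known. The text names all aldehyde dehydrogenase genes, WWTR1, per further list the 3 tested genes with the largest siTAZ differences and the 3 with the largest line differences, and the 5 genes nearest in profile to ALDH1A1. MAL2 and single cell type markers were named after their values were seen. Alternatives were median centring, quantile normalization, cyclic loess, the mean of probe sets, other filters and fold thresholds, and a fit without the cell line.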

Additional observations from a re-analysis of the deposited data

Results flagged for a closer look

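The second ALDH1A3 probe set, which entered only the alternative with the mean of probe sets, had a higher signal after siTAZ in H441, by 0.32 on the log2 scale (6.55 with siTAZ and 6.23 with siNTC), above the level in the control array, where the probe set that was used had -0.41. No member had siTAZ differences of opposite sign that were both at least 1.2-fold in the 2 lines.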

How the results depend on the processing

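The number of genes called by limma after siTAZ was 315 as reported, and 146 after quantile normalization, 20 after cyclic loess, 92 without the filter on dim genes and 0 without the cell line in the fit. It was 400 after median centring, and 300 both with the mean of probe sets and with the stricter filter. The number of members called was 1 (ALDH1A3) as reported, after median centring and under the stricter filter. It was 0 after quantile normalization, after cyclic loess, with the mean of probe sets, without the filter and without the cell line. ALDH1A3 had negative differences under each alternative scaling and with the mean of probe sets, from -0.50 to -0.14. The other filters and the fit without the cell line cannot move this difference, only its p-value. Over all 7 alternatives the limma adjusted p for ALDH1A3 ran from 0.012 to 1. Members past 1.5-fold after siTAZ numbered 0 in each line under every alternative scaling and with the mean of probe sets. All 10 genes were below 1.5-fold in each line as reported, so other filters or a higher threshold could not change that count. Members past 2-fold between the lines were 2 or 3, the third being ALDH3A2 after median centring, quantile normalization and cyclic loess. Across the scalings and the mean of probe sets, 9 of 10 members kept the sign of their siTAZ difference in A549, 6 of 10 in H441 and 7 of 10 the sign of their line difference. The cause of these changes was not tested. Without the cell line in the fit, the difference between the lines enters the spread. The siTAZ and siNTC arrays were already compared within each line, with the line as the block, and the labels give no replicate numbers for another pairing. No array could be left out, since each group has 1. With no detection values, how far the dim signals of ALDH1A2 and ALDH1L1, and of ALDH1A1 in H441, lie above background is unknown.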
